A study of Mus musculus with 2 samples.

Results

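Annotated intronless transcripts are RNAs that the gene annotation describes as a single exon, so that no intron has to be removed before the RNA is mature. They were taken as the transcript models on the autosomes that the deposited tables class as known and give 1 exon, with 1 or more read in either library. The rule found 1393 such models, of 134385 mouse transcript models with reads. Of the 1393 models, 1141 were listed in replicate 1 and 951 in replicate 2. The coordinates and the length of all 1393 models equal those of single-exon transcripts in GENCODE M21 (mouse build mm10). The annotation holds 24481 single-exon transcripts on the same chromosomes, so 5.69% of them had a read. Beyond this 1 read the rule uses no level. A model without reads in both libraries could not enter, and 694 of the 1393 entered through 1 library only. Counts of models at 1 read and the agreement of the libraries over all models depend on this limit.

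Long reads of total RNA were made from gastrocnemius, the main calf muscle, of male B6CASTF1/J mice aged 10 days. These are F1 hybrids of the C57BL/6J and CAST/EiJ strains, untreated as far as the labels say. There are 2 libraries in 1 group, labelled biological replicates 1 and 2 and taken from different males with the same donor entry, each from 2 micrograms of RNA with spike-ins added. No control or treated group exists, so the comparisons made are those of intronless with other models, and of replicate 1 with replicate 2. The sum of 7 skeletal muscle markers (7 of 7 listed) was 264939 CPM in replicate 1 and 262263 CPM in replicate 2, where CPM is reads per 1000000 mouse reads.

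Most mammalian genes are interrupted by introns, and splicing joins their exons. A smaller set of working genes has none, among them the replication-dependent histones, several immediate-early transcription factors and many receptors. A further source of intronless sequence is retroposition, in which a mature mRNA is copied back into the genome as a processed pseudogene, which keeps the exons of its source and lacks the introns. Long reads span a whole transcript, so that a spliced RNA shows its junctions. A read that shows none can still lie on an intronless gene, on a processed pseudogene, on an unspliced pre-mRNA or on a stretch within a single exon.

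More reads on intronless models lay on processed pseudogenes than on any other class, and the sequences show how little separates many of these models from spliced genes. Of the 1393 models, 366 (26.3%) matched a spliced coding transcript or a mitochondrial transcript of another locus at 95% identity or more over 90% or more of their length. These near-identical copies match 263 genes. They comprise 304 processed pseudogenes and 36 models annotated as protein-coding, and 76 of them are identical to the other gene over the whole match. The following windows are shown because they come from the 4 copies with the most reads, with a ribosomal protein copy added as an example of that group. All are given 5′ to 3′ from the GENCODE M21 transcripts (build mm10), with bases that differ between copy and matched gene in capitals.

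Gm12671, a processed pseudogene of Gapdh (the glycolytic enzyme glyceraldehyde-3-phosphate dehydrogenase), is shown at chr4:91852610-91852669 on the minus strand, with transcript positions 93 to 152 of Gapdh-201. The 2 windows are identical, as is the rest of the 1002 aligned bases.
Gm12671: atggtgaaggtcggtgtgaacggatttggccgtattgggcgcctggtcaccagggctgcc
Gapdh: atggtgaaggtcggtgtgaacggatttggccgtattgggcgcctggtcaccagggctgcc
Gm12033 at chr11:20335480-20335539 on the minus strand and Gm5559 at chr5:95862069-95862128 on the plus strand each differ from Gapdh at 1 of 1002 bases. The differences are T504C in Gm12033 and T385A in Gm5559, written as the base of the matched gene, the position from the 5′ end of the copy counted from 1, and the base of the copy.
Gm12033: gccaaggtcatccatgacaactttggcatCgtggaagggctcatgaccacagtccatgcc
Gapdh: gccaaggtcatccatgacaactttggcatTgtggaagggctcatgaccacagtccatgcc
Gm5559: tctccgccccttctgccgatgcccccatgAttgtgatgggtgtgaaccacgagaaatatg
Gapdh: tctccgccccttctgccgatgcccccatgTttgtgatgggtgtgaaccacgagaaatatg
Gm15459, a processed pseudogene of the constitutive chaperone gene Hspa8, is shown at chr5:5783412-5783471 on the minus strand. It differs from Hspa8 at 5 of 1941 bases, of which G114A lies in the window.
Gm15459: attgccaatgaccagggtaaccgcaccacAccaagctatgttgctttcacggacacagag
Hspa8: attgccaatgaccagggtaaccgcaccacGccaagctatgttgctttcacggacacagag
Rps19-ps6, a copy of the ribosomal protein gene Rps19, is shown at chr12:110898114-110898173 on the plus strand. It differs at 5 of 438 bases, and C6T lies in the window.
Rps19-ps6: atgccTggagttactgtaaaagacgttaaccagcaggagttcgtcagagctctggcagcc
Rps19: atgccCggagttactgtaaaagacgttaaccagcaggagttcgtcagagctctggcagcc

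Intronless models held 20588 of 1145490 mouse reads in replicate 1, a share of 1.80% (95% Wilson interval 1.77% to 1.82%). In replicate 2 they held 16017 of 941841 reads, a share of 1.70% (1.67% to 1.73%). The mean share was 1.75% ± 0.0684 (SD, n = 2), and the libraries differed by 0.0967 points (two-sided Fisher's exact test on reads, p = 1.17e-07). The test sets the libraries against counting error only, as do the intervals, since the reads carry no molecular identifier in these tables. A limit of 3 reads corresponds to 2.62 CPM in replicate 1, and for replicate 2 to 3.19 CPM. A long read is 1 cDNA, so levels were not divided by length.

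Processed pseudogenes numbered 364 models and took 55.6% of the intronless reads in replicate 1 and 53.5% in replicate 2, with a summed level of 9548 ± 632 CPM (mean ± SD, n = 2). Protein-coding models numbered 358 and took 35.8% and 39.7% of these reads in replicates 1 and 2, at 6589 ± 227 CPM. Long noncoding models (214) took 4.13% in replicate 1 and 3.15% in replicate 2. Models annotated as retained introns (231) took 2.34% in replicate 1 and 1.80% in replicate 2. The remaining classes are 122 models annotated as TEC (loci flagged in the annotation as to be experimentally checked), 90 small RNAs and 14 unprocessed pseudogenes, and each took at most 1.01% of the intronless reads in a library. Reads were concentrated. The 5 most abundant models held 32.3% of the intronless reads in replicate 1 and 25.9% in replicate 2, and 541 of the 1393 models (38.8%) had a single read in all.

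**Figure D1:**
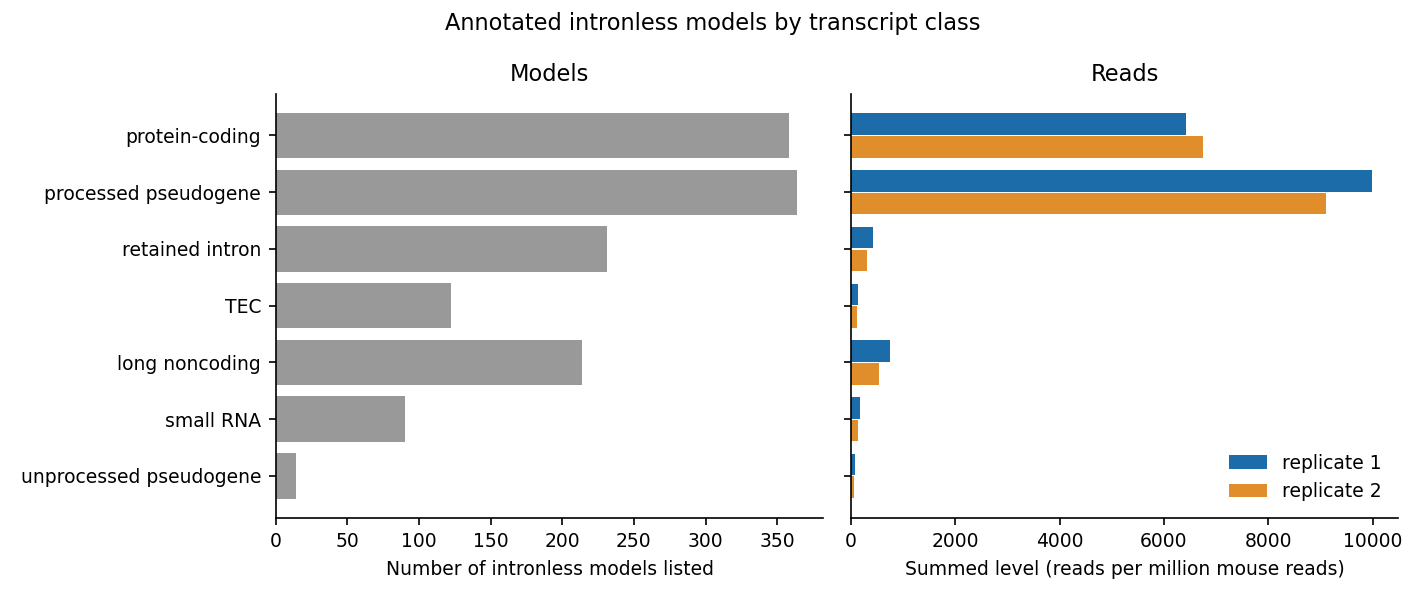
Number of annotated intronless models with reads in each transcript class (left) and their summed level in replicates 1 and 2 in CPM (right). Processed pseudogenes and protein-coding models are about equally many, at 364 and 358, and processed pseudogenes hold the most reads in both libraries.

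Copies of Gapdh formed the largest single group. There were 14 near-identical copies of Gapdh with reads, 7 of them with 20 or more over both libraries, and they held 28.9% of all intronless reads in replicate 1 and 20.5% in replicate 2. Gm12671 had 2351 reads in replicate 1 and 1098 in replicate 2. Gm12033 had 1470 and 792 reads in replicates 1 and 2. Gm5559 had 1093 reads in replicate 1 and 633 in replicate 2. All 3, whose windows are shown above, had higher levels in replicate 1. Gm7336 on chromosome 7 had 696 reads in replicate 1 and 545 in replicate 2, and Gm13394 on chromosome 2 had 290 and 184 reads. The gene Gapdh itself, on chromosome 6, had 62 reads in replicate 1 and 44 in replicate 2 over all its models, of which 3 in each library were on its own single-exon model, Gapdh-213. All copies together had 5955 reads in replicate 1 and 3287 in replicate 2. Their summed level was 4344 ± 1208 CPM, against 50.4 ± 5.24 CPM for Gapdh (mean ± SD, n = 2). The sum of both would rank 22 among all genes, and Gapdh alone ranked 2540.

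The annotation holds 292 processed pseudogenes whose best match is Gapdh, and most of them had no reads. Gm10359, also identical to Gapdh over 1002 bases, had 27 reads in replicate 1 and 16 in replicate 2. Gm12671 and Gm10359 are thus equally close to Gapdh, and Gm12671 had many more reads in both libraries. How reads were divided among identical sequences is not given in the sources used here, so values of single copies are uncertain.

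Other families divided their reads more evenly between copy and gene. Gm15459 had 1044 reads in replicate 1 and 1083 in replicate 2, and Hspa8 had 1074 and 1163. Gm10123, a copy of the cyclophilin gene Ppia, had 279 reads in replicate 1 and 295 in replicate 2, against 337 and 306 for Ppia. Ftl1-ps1, annotated as protein-coding and a copy of the ferritin light chain gene Ftl1, had 214 and 242 reads, against 201 and 241 for Ftl1. Gm12338, a copy of Cox7c, a subunit of cytochrome c oxidase, had 196 reads in replicate 1 and 246 in replicate 2, against 415 and 464 for Cox7c. Gm15500, a copy of the ribosomal protein gene Rpl5, had 185 reads in replicate 1 and 152 in replicate 2, against 299 and 276 for Rpl5. Mpc1-ps, a copy of the mitochondrial pyruvate carrier gene Mpc1, had 123 and 136 reads, against 182 and 231 for Mpc1. In the family of Oaz1, the gene of ornithine decarboxylase antizyme, the copy had 100 and 111 reads and the gene 1936 and 1986, a copy share close to the median of the families.

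Over the 246 families with 20 or more reads, the copies held a median of 4.65% of the reads of copies and gene, and under 5% in 125 families. They held over 50% in both libraries in 12 families, namely Gapdh, Ftl1, Atp5g2, Amd1 and the ribosomal protein genes Rpl10, Rpl17, Rpl21, Rpl30, Rpl31, Rpl35a, Rpl37 and Rps13. Rpl10-ps3 had 102 reads in replicate 1 and 64 in replicate 2, against 7 and 5 on Rpl10. Rpl10 itself lies outside the autosomes, and its copy on chromosome 9 is identical to it over 96.4% of its length. Among pseudogenes of ribosomal proteins, 56 of 261 annotated had reads, and 55 of the 56 are near-identical copies. The share held by copies was similar in the libraries, with Pearson r = 0.956 across the 246 families. Families are not independent replicates, and both libraries were read against the same annotation.

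**Figure D2:**
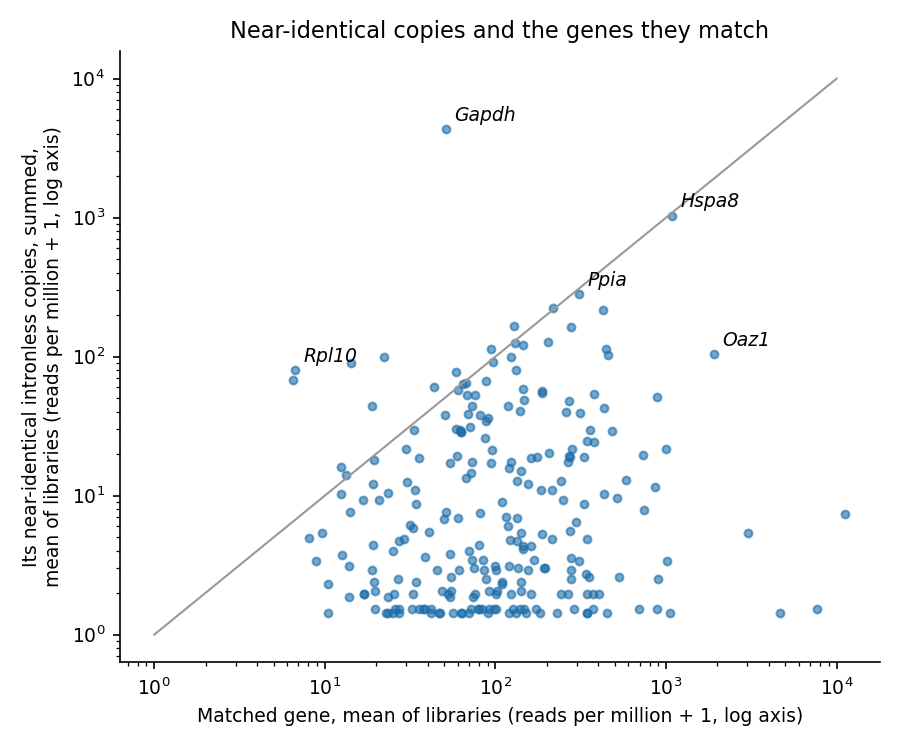
Summed level of the near-identical intronless copies of a gene against the level of that gene, each as the mean of 2 libraries in CPM plus 1 on log axes, for 246 families with 20 or more reads. The grey line marks equal levels. Most families lie under it, Hspa8 and Ppia lie close to it, and Gapdh lies far above it at 4344 CPM for the copies and 50.4 CPM for the gene.

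Whether a processed pseudogene had reads went with its identity to a spliced gene. Identity here is that of the aligned stretch, with no minimum on the part of the pseudogene covered. Of 2121 annotated processed pseudogenes with a best match under 90% identical, 12 had a read, which is 0.566% (95% Wilson interval 0.324% to 0.986%). The share was 1.08% at 90% to 95% identity, 3.65% at 95% to 98% and 13.7% at 98% to 99%. It was 38.7% (34.0% to 43.6%) from 99% to under 100%, and 40.8% (33.4% to 48.6%) among the 157 that are identical over the aligned stretch. The order was the same among those whose matched gene had 20 or more reads, where 53.1% of identical and 0.526% of the under 90% group had a read. Listed processed pseudogenes had a median identity of 99.4% to their match, and those without reads 92.1%. These values leave out models without a match, as 342 of 364 listed and 5757 of 7975 unlisted ones had a match. The matched genes of listed pseudogenes also had more reads, with a median of 165.5, against 45 for the others.

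**Figure D3:**
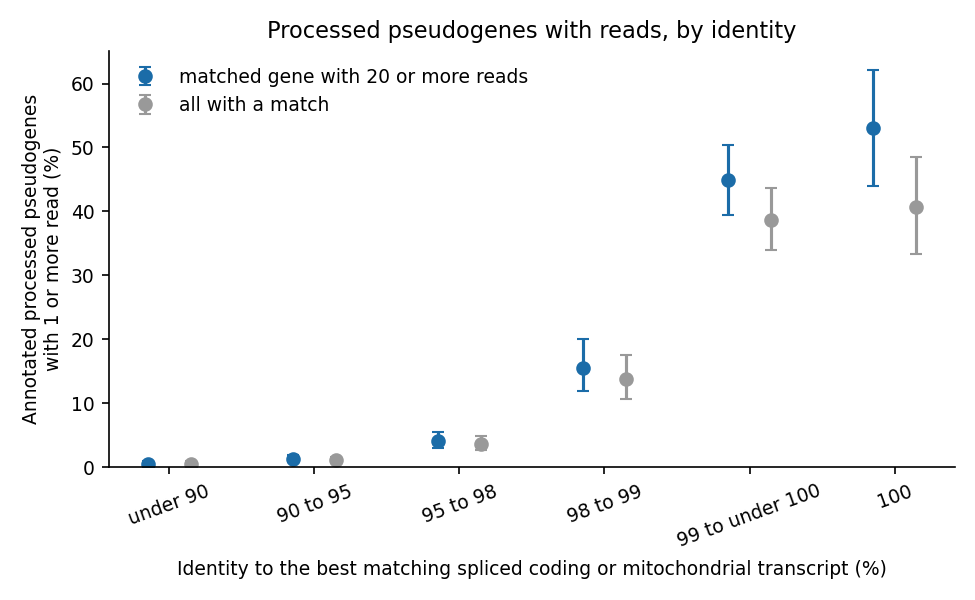
Share of annotated processed pseudogenes with 1 or more read in either library, by identity to the best matching spliced coding or mitochondrial transcript. Identity is that of the aligned stretch, whatever part of the pseudogene it covers. Points are shares and bars are 95% Wilson intervals. Blue points are those whose matched gene has 20 or more reads, and grey points all with a match. The grey points rise from 0.566% in the lowest bin to 40.8% in the highest.

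Intronless models that are not near-identical copies of a spliced or mitochondrial gene at another locus are not subject to that uncertainty to the same degree. The search covered spliced coding and mitochondrial transcripts only, so intronless genes that closely resemble each other were not found by it. Models of all classes outside the near-identical copies numbered 1027 and held 8310 reads in replicate 1 and 6621 in replicate 2. The most abundant of them include transcription factors and other regulators. Jund, the gene of the AP-1 subunit JunD on chromosome 8, had 396 reads in replicate 1 and 730 in replicate 2, at 346 and 775 CPM. Cebpb, the gene of a basic leucine zipper factor of the C/EBP family, had 362 reads in replicate 1 and 330 in replicate 2. Cebpd, of the same family, had 95 and 55 reads. Ier2, an immediate-early gene, had 52 reads in replicate 1 and 58 in replicate 2. Jun had 23 and 25 reads, and Junb 16 and 24. In this list of AP-1 and immediate-early genes, all 11 genes with an annotated intronless model had reads and summed to 863 CPM in replicate 1, against 1321 CPM in replicate 2. Most of the difference between these sums lay in Jund. The list also holds Cebpg, whose intronless model is a retained intron.

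Among other regulators, Fem1a, a substrate receptor of ubiquitin ligases, had 290 reads in replicate 1 and 194 in replicate 2. Mafa, of the Maf family of basic leucine zipper factors, had 280 and 154 reads, and Pcbp1, a poly(C)-binding protein of RNA, had 207 and 167. Cited4, a transcriptional co-regulator, had 96 reads in replicate 1 and 47 in replicate 2. Purb, a single-strand nucleic acid binding protein known to repress muscle genes, had 28 and 36. The list of single-exon regulators includes Fem1a, Cited4 and Purb but neither Mafa nor Pcbp1. Of the 22 genes of this list, 7 have an annotated intronless model. All 7 had reads, with Tob2 on a retained-intron model, at 341 ± 53.9 CPM summed (mean ± SD, n = 2). Zfp36, whose protein binds AU-rich elements of short-lived mRNAs, had 4 reads in each library, and Ppp1r3d, a glycogen-targeting subunit of protein phosphatase 1, had 11 and 2.

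Histone genes were listed in part. Of 73 histone genes with an annotated intronless model, 22 had reads, with 443 CPM in replicate 1 and 343 CPM in replicate 2. H1f0, a linker histone whose RNA is polyadenylated and not tied to replication, had 262 reads in replicate 1 and 134 in replicate 2. Hist1h1c, another linker histone, had 85 and 27 reads. H2afx, the histone variant marked at DNA breaks, had 46 reads in replicate 1 and 32 in replicate 2. Lower levels were those of core histone genes, at 16 and 27 reads for Hist1h4h, 18 and 22 for Hist2h2aa2, and 21 and 27 for Hist3h2a. Histone genes of 1 cluster resemble each other closely, so single values within a cluster are uncertain.

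Receptors, surface proteins and genes of other cell types were also listed. Cldn5, the endothelial tight junction claudin, had 206 reads in replicate 1 and 127 in replicate 2. Thbd, the gene of endothelial thrombomodulin, had 22 and 21 reads. The summed level of 3 other endothelial markers (Pecam1, Cdh5 and Kdr, 3 of 3 listed) was 127 CPM in replicate 1 and 81.8 CPM in replicate 2. In bulk tissue, more cells of a type and more RNA per cell cannot be told apart. Aplnr, the apelin receptor, had 71 reads in replicate 1 and 85 in replicate 2. Of the Frizzled receptors for Wnt proteins, Fzd9 had 39 reads in each library, Fzd1 21 and 15, Fzd7 19 and 7, and Fzd2 17 and 8 in replicates 1 and 2. Ndn, an imprinted gene known to be expressed from the paternal allele, had 118 reads in replicate 1 and 95 in replicate 2, at 103 and 101 CPM. The other listed genes of the imprinted list had at most 8 reads over both libraries. Of the heat shock 70 genes, Hspa2 had 19 reads in replicate 1 and 35 in replicate 2, Hspa1a 5 and 8, and Hspa1b 4 and 7. Hspa1a and Hspa1b were not compared with each other, so their single values are uncertain. Of the small GTPase genes, Rhob had 21 and 17 reads, Rap2b 3 and 6, and Arl4c 4 and 3.

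Long noncoding and small RNA models were sparse. Malat1, the abundant nuclear RNA, had 38 reads in replicate 1 and 5 in replicate 2 on its single-exon model of 6983 bases, and Neat1 had 3 and 2. Particl, the highest of the TEC models, had 18 reads in replicate 1 and 10 in replicate 2. Of the 90 small RNA models, 54 were annotated microRNAs with 141 reads in replicate 1 and 90 in replicate 2. Their models are 53 to 141 bases long, which is the hairpin, and 38 of the 54 lie inside another gene on the same strand. Mir546, with the most reads among those matched to a mature sequence in RefSeq (GRCm38.p6), had 20 reads in replicate 1 and 13 in replicate 2. It lies on chromosome 10 and its whole hairpin model is contained in a transcript of Ctdsp2 at the same locus. Its mature sequence is given with the seed (bases 2 to 8) in capitals.
mmu-miR-546: aUGGUGGCacggaguc
Mir133a-2, the hairpin of a microRNA known from striated muscle, had 5 reads in replicate 1 and 2 in replicate 2. The models are hairpins, so these reads are not a measure of mature microRNAs.

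The question whether the gene also has spliced models with reads separates the classes. The 1393 models belong to 1377 genes, and 370 of these genes (26.9%) also had reads on models of 2 or more exons. With annotated spliced models alone, the count was 265 genes. Among genes with a retained-intron model, 217 of 224 had spliced reads, and the intronless share of the gene had a median of 4%. Among genes with a protein-coding intronless model, 81 of 356 did, and among those with a processed pseudogene model 25 of 364. The annotation gives spliced models to 373 of the 1377 genes. In 300 of these, multi-exon models, annotated or not, had reads, 15720 in replicate 1 and 13702 in replicate 2, and the intronless models held a median of 5.88% of the gene's reads. In the other 73, no multi-exon model had reads and the intronless models held 835 and 704 reads.

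The genes with the most spliced reads beside an intronless model of 10 CPM or more were of 3 kinds. Pgp, which encodes phosphoglycolate phosphatase, had 51 and 40 reads on its retained-intron model and 219 and 173 on spliced models in replicates 1 and 2, an intronless share of 18.9% and 18.8%. Ss18l2 and Klhl33 also hold retained-intron models, with 24 and 8 intronless beside 38 and 45 spliced reads for Ss18l2, and 20 and 11 beside 36 and 17 for Klhl33. Zbtb18, a zinc finger transcription factor, has a protein-coding intronless model with 16 and 8 reads beside 25 and 12 spliced reads. Gas1, a growth arrest gene with no annotated spliced model, had 190 and 125 intronless beside 23 and 9 multi-exon reads. All of the multi-exon reads of Gas1 lay on models the tables class as genomic, a class for models that overlap a gene without matching its annotated exons. At the low end, Trdn, the gene of triadin of the calcium release unit, had 9 and 8 intronless beside 815 and 986 spliced reads. Smim10l1 shows the other end, with 154 and 123 intronless beside 4 and 1 spliced reads, though 3 of its annotated models are spliced. Kcnj11, the pore subunit of the ATP-sensitive potassium channel, had 48 and 19 intronless beside 5 and 3 spliced reads.

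Unannotated splicing of intronless genes was rare. Of the 1004 genes that the annotation gives no spliced model, 70 had multi-exon reads, 170 in replicate 1 and 122 in replicate 2. Of these 292 reads, 255 lay on models classed as genomic, 27 on models with a new junction (NNC) and 10 on models with part of an annotated chain (ISM).

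**Figure D4:**
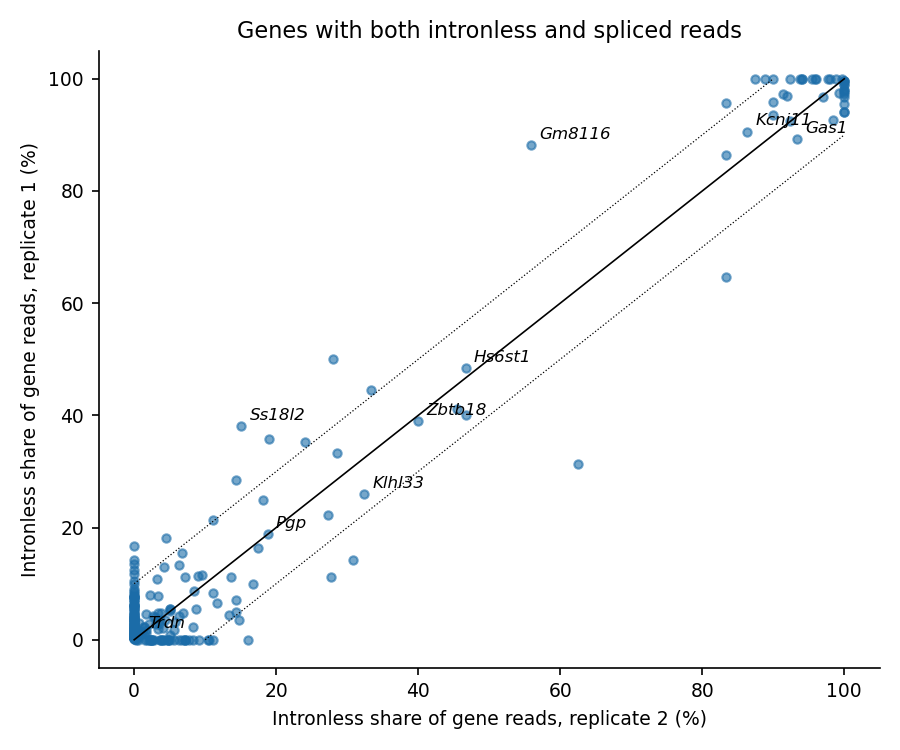
Share of a gene's reads on its annotated intronless models in replicate 1 (vertical) and replicate 2 (horizontal), in percent, for 233 genes with 20 or more reads and both intronless and spliced reads. The solid line marks equal shares and the dotted lines a difference of 10 points. Gm8116 lies farthest above the line among the named genes, at 88.2% in replicate 1 and 55.9% in replicate 2.

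No gene was called for a different division between intronless and other models in the libraries. Of 156 genes tested, 0 (0%) were called at a Benjamini-Hochberg adjusted p under 0.05 and 10 points, by two-sided Fisher's exact tests, and 2 had an unadjusted p under 0.05. These were Gm8116, at 67 of 76 reads in replicate 1 and 19 of 34 in replicate 2 (adjusted p = 0.0516), and Ss18l2, at 38.1% and 15.1%. In 118 of the 156 genes the intronless share, pooled over the libraries, was under 10%, and in 24 it was over 90%, which leaves little room for a difference of 10 points. Of the other 14 genes, 9 lay within 10 points, with a median absolute difference of 5.29 points.

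Intronless models were shorter than spliced ones. Their annotated length had a median of 1316 bases (quartiles 531 and 2498), against 2390 bases for the 18453 annotated spliced models with reads on the same chromosomes. The median of all annotated single-exon transcripts was 592 bases. Weighted by reads, the median was 1002 bases, which is the length of the Gapdh copies Gm12671, Gm12033 and Gm5559. Among classes the median was 2364 bases for protein-coding models, 2086 for retained introns, 1700.5 for long noncoding, 522 for processed pseudogenes and 103.5 for small RNAs. The longest models with 20 or more reads were Paqr9 (8367 bases), Purb (8319), Malat1 (6983), Fem1a (6801) and Rbm15b (6511). The shortest were Gm3625 (102 bases), Mir546 (121), Gm28006 (122), Gm47286 (128) and Gm14303 (171). These are lengths of the annotated models, not of the reads.

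The ends of the models differed by class. A polyadenylation hexamer, AATAAA or ATTAAA on the transcript strand, occurred in the last 50 bases of 69.3% of the 358 protein-coding intronless models (95% Wilson interval 64.3% to 73.8%) and of 69.6% of the annotated spliced models. It occurred in 64.5% of long noncoding, 54.9% of TEC and 39.0% of retained-intron models, and in 2.20% of processed pseudogenes (1.12% to 4.28%). Of the protein-coding intronless models without reads, 20.8% had one, and of all annotated single-exon transcripts without reads 11.3%. The protein-coding intronless models had a median coding share of 44.5% of their length. A match is a description of the annotated end and not of the end of the reads.

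Intronless models repeated less often between the libraries than spliced ones. Of the 1141 models listed in replicate 1, 61.3% (58.4% to 64.0%) were listed in replicate 2, and of the 951 in replicate 2, 73.5% (70.6% to 76.2%) were listed in replicate 1. For annotated spliced models the shares were 78.4% and 84.8%, with intervals that do not overlap those of intronless models. Spliced models also had more reads, with a median of 7 over both libraries, against 2 for intronless models. Intronless models with 5 or more reads in replicate 1 were found in replicate 2 in 97.8% of cases, and those with 5 or more in replicate 2 were all found in replicate 1. Of the 694 models listed in 1 library only, 8 had 5 or more reads, and Mir7219 had the most, with 9 in replicate 1. Protein-coding models repeated at 82.0% and 89.6%, and retained introns at 39.6% and 62.7%, for lists of replicates 1 and 2. Across the 1393 models, log2(CPM + 1) had Pearson r = 0.861 and Spearman rho = 0.604 between the libraries. Across the 237 with 20 or more reads these were 0.891 and 0.842. Models are not independent replicates.

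Of the 237 intronless models with 20 or more reads, 207 lay within 2-fold between the libraries. The reads of each model in replicate 1, given its total, were tested against the split of all mouse reads (exact conditional binomial test, two-sided, Benjamini-Hochberg adjustment over all 7922 models). A call needed a 2-fold difference and an adjusted p under 0.05. There were 11 calls, 4.64% of the intronless models tested, beside 3.46% of all models and 2.47% of annotated spliced models. Of these, 6 were higher in replicate 1 (background 2.2%) and 5 higher in replicate 2 (background 1.26%). The median log2 ratio of replicate 1 over replicate 2 was 0.00 for intronless models and -0.03 for all models. Among fixed lists, 1 of 7 AP-1 and immediate-early genes tested was called (Jund) and 1 of 8 histones (Hist1h1c), with median log2 ratios of -0.40 and -0.48. At an unadjusted p under 0.05 the counts were 2 of 7 and 4 of 8. The histones did not move together. Hist1h1c, H1f0 and H2afx were higher in replicate 1, at 1.37, 0.68 and 0.24, and all other tested histones were higher in replicate 2. Of 20 ribosomal protein pseudogenes 0 were called by this test, with 2 at an unadjusted p under 0.05 and a median log2 ratio of -0.04. Of the near-identical copies, 3 of 105 tested were called, and of the other models 8 of 132. A further 15 models passed the adjusted p with a smaller difference. Among these were the Gapdh copies Gm12671, Gm12033 and Gm5559, with log2 ratios of 0.82, 0.61 and 0.51. They also included Mafa at 0.58, H1f0 at 0.68 and Cited4 at 0.75. With 1 animal a library, the test compares the libraries and not conditions. The labels cite pipeline document 3.1 for replicate 1 and 3.0 for replicate 2, and the version and the animal cannot be told apart.

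Jund had the most reads of the 11, with a log2 ratio of -1.16 (95% exact interval -1.34 to -0.99) and an adjusted p = 8.32e-38 in the exact conditional binomial test. Otud1, a deubiquitinase gene, had 37 reads in replicate 1 and 91 in replicate 2, a log2 ratio of -1.58 (-2.17 to -1.01). Hspa2, at 19 and 35 reads, had a log2 ratio of -1.16 (-2.05 to -0.32), and its adjusted p lay just under the limit of 0.05. Higher in replicate 2 were also the pseudogenes Gm10221, a copy of Atp5l with 31 and 61 reads, and Gm6563, a copy of Sarnp with 2 and 24 reads and a log2 ratio of -3.87 (-6.99 to -1.86). The matched gene Sarnp had 68 reads in replicate 1 and 77 in replicate 2.

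Higher in replicate 1 was Hist1h1c, at 85 reads in replicate 1 and 27 in replicate 2, with a log2 ratio of 1.37 (0.73 to 2.05). Ccdc85b, at 37 and 12 reads, had a log2 ratio of 1.34 (0.37 to 2.42), and its adjusted p also lay just under the limit of 0.05. Gm8116, a copy of Carnmt1, had 67 and 19 reads. Malat1, at 38 and 5 reads, had a log2 ratio of 2.64 (1.30 to 4.35). The last pair lie close together on chromosome 17, where AY036118 had 144 and 26 reads and Gm26917 had 28 and 5. Gm42418, on the strand opposite to AY036118 and overlapping it, had 44 reads in replicate 1 and 21 in replicate 2 and was not called. Whether counting used strand is not given in the sources used here, so reads of AY036118 and Gm42418 cannot be told apart.

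Other values moved between the libraries too. Fibroblast markers (3 of 3 listed) had a summed level of 18575 CPM in replicate 1, against 10908 CPM in replicate 2. Red cell markers (2 of 2 listed) had 317 CPM in replicate 1 and 674 CPM in replicate 2. Models over 4000 bases had a summed log2 ratio of 0.39 when intronless and 0.45 when spliced, and models of 251 to 500 bases -0.23 in both sets. Without near-identical copies, the intronless models of 251 to 500 bases had 0.20, the opposite sign, and those over 4000 bases 0.38. The part of these differences in the calls was not tested.

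**Figure D5:**
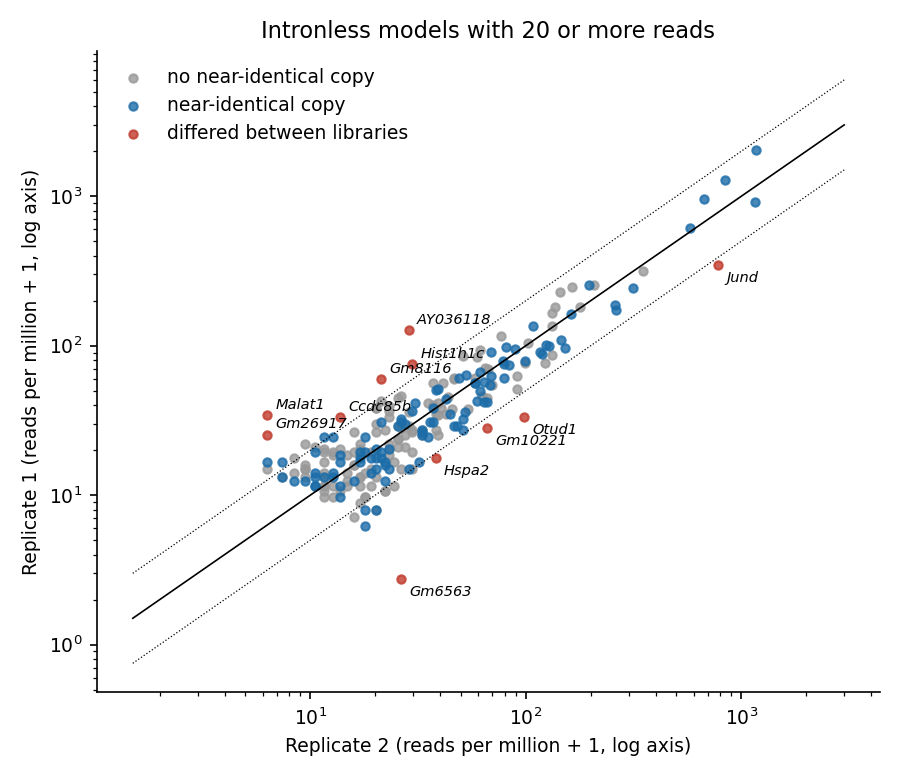
Level of each intronless model with 20 or more reads in replicate 1 (vertical) and replicate 2 (horizontal), in CPM plus 1 on log axes. Blue points are near-identical copies of another gene, grey points the others, and red points the 11 that differed between the libraries. The solid line marks equal levels and the dotted lines a 2-fold difference, and 207 of the 237 models lie within it.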

How the data were processed

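The authors deposited raw read counts per transcript model for each of the 2 libraries, listing models with 1 or more read, and per the file headers used assembly mm10 and GENCODE M21, with TALON attributes in the annotation files. The aligner, tool versions and use of strand were not given in the sources used here. Replicate 1 holds 1145490 and replicate 2 941841 mouse reads, with 26923 and 15688 spike-in reads left out. From these counts CPM was computed per 1000000 mouse reads. Members and lists were chosen with earlier results of these data known. The largest called folds, the 20 highest members, up to 6 members of each fixed list, the 5 longest and shortest, and the genes richest in spliced reads were named, and families and members singled out beside these were chosen after their values were seen. Models with 20 or more reads, unannotated ones matched by intron chain, were tested by an exact conditional binomial test, and gene shares and the summed share by Fisher's exact test, in Python 3.11.15 with scipy 1.17.1. Both per-feature tests were also run on simulated counts with counting error only. The simulated gene shares were held between 10% and 90%, where few of the tested genes lie, so the simulation says little of the others. Near-identical copies were found with blastn 2.17.0 at 95% identity over 90% of the length. Alternatives used edgeR 4.0.16 and DESeq2 1.42.0 size factors. Setting 1 library against the other leaves neither package residual degrees of freedom. An item that the naming rule takes is not reported here.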

Additional observations from a re-analysis of the deposited data

How the results depend on the processing

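No paired analysis was possible because the 2 libraries form 1 group. The count of 11 intronless models called between the libraries was 10 with edgeR TMM or DESeq2 size factors, 4 at a minimum of 100 reads and 26 without the fold limit. The 1393 models fell to 501 at 5 and 237 at 20 reads, and lay between 951 and 1141 in a single library. The share of reads was 2.40% of annotated-model reads and 1.59% without Gm12671, and 1.70% to 1.80% in single libraries. The mean share found again in the other library was 67.4% for all, 88.1% at 2 and 98.9% at 5 reads. Genes with spliced reads numbered 370, and 200 to 282 in a single library. The median length was 1316 bases, 1431 at 5 reads, 1356 at 20 reads and 1002 weighted by reads, and 1342 to 1380 in single libraries. Pearson r was 0.569 with a pseudocount of 0.1 CPM, 0.957 with 10 CPM and 0.891 at 20 reads. No gene was called for its intronless share under 3 alternatives (10 reads, 50 reads, no limit on the difference), where 1 to 2 had an unadjusted p under 0.05. Near-identical copies held 59.1% of intronless reads as the mean of the libraries, 56.7% at 99% identity and 45.6% without the Gapdh family, in alternatives chosen after seeing the data. Models at 1 or 2 reads limit what can be said of single loci.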

Other observations

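Intronless models on chromosomes outside the rule were counted for comparison. Chromosome X had 44 such models with 1564 reads in replicate 1 and 1217 in replicate 2. The mitochondrial chromosome had 15 models with 540 and 568 reads. Chromosome Y had 2 models with 3 reads in each library.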
